A study of Mus musculus with 19 samples.

Results

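The comparison of ILCp with ALP spans the whole way from a multipotent lymphoid progenitor to a progenitor committed to innate lymphoid cells (ILC), with the EILP stage lying between them. It was made over all 18607 genes of a log2 CPM table (counts scaled to the library total) and rests on 12 of the 19 RNA-seq libraries of the study, 5 of ILCp and 7 of ALP. The 7 EILP libraries served as the middle point and added to the estimate of spread. They also shared the batch terms, so changes as well as calls differed when ALP and ILCp were fitted alone. All cells came from C57BL/6 mice and the tissue label is bone marrow. ALP came from Tcf7EGFP/+ mice and were sorted as Flt3-high cells positive for Kit and IL-7Rα, with low lineage markers and low Ly-6D. ILCp were sorted for Kit, high GFP, Thy-1.2, high IL-7Rα and α4β7 integrin, with low CD122. ILCp 1 to 3 came from Tcf7EGFP/+ mice, where GFP marks expression of Tcf7. ILCp 4 and 5 came from Plzf-cre-GFP/+ mice, where GFP marks expression of the gene for PLZF, so the cells were gated on another gene's reporter. EILP came from Tcf7EGFP/+ mice and were gated as Kit+ GFP-high cells whose IL-7Rα was intermediate or low, with Thy-1.2 and CD122 both low.

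The labels put the libraries in 5 batches, of which batches 1, 2 and 4 held both ALP and ILCp (1 against 1, 2 against 1 and 1 against 3 libraries). Both Plzf-cre-GFP libraries lay in batch 4, and batch 5 held 3 ALP libraries and no ILCp. The labels do not say whether libraries came from separate mice, so the p-values measure the spread between libraries only. Without counts in the table, library depth is unknown. Fold changes are differences of log2 CPM, ILCp minus ALP, with standard errors (SE) from limma, and a gene is called at a Benjamini-Hochberg adjusted p below 0.05 (two-sided, over all genes). In sorted populations, fewer cells of a type and less RNA per cell cannot be told apart.

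ALP (all-lymphoid progenitors) can give rise to B cells, T cells, NK cells and ILC. ILC are lymphocytes without rearranged antigen receptors that act early in tissue defence and repair, and their helper subsets are called ILC1, ILC2 and ILC3. On the way from ALP to ILCp, cells are known to gain the transcription factors TCF-1 (from Tcf7), GATA3, ID2, PLZF, TOX, RORα and BCL11B. ID2 binds E proteins, the factors that drive B and T lymphoid programs, and keeps them off DNA, while Flt3 and the DNA polymerase TdT (from Dntt) mark the multipotent lymphoid stage.

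The 4 genes set as markers of the committed stage behaved as the labels say in each library. Gata3 (chromosome 2, 9857078 to 9890034, minus strand, GRCm38) stood at 9.60, 9.82, 9.70, 10.11 and 11.09 log2 CPM in ILCp 1 to 5. In ALP it lay between 0.37 and 2.19 (median 1.76). Id2 (chromosome 12, 25093799 to 25097140, minus strand) reached 10.71, 11.23, 10.58, 10.86 and 11.30 in ILCp 1 to 5, against 4.24 to 5.56 in ALP (median 4.80). The highest ALP library was under the lowest ILCp library for both genes, and EILP lay between them at 6.36 to 7.57 for Gata3 and 8.74 to 9.64 for Id2. Rora (chromosome 9, 68653786 to 69388246, plus strand), which encodes the nuclear receptor RORα, measured 9.47, 10.34, 9.44, 10.26 and 10.42 in ILCp 1 to 5. It ranged from −4.80 to 2.00 (median 0.76) in ALP. Bcl11b (chromosome 12, 107910403 to 108003602, minus strand), known for its part in T cell and ILC2 commitment, measured 8.43, 8.19, 7.34, 8.30 and 8.44 in ILCp 1 to 5. In ALP it lay between −5.44 and −4.89, at the zero level of the table in 5 of 7 libraries and at the lowest value of the batch in the other two. The zero level is the lowest value that a gene takes in a batch, shared by at least 2 libraries. It is read as no detected reads, and it differs between batches because batch was removed from the values. Where an ALP or ILCp library is alone in its group and batch, a gene said to be at the zero level in the whole group is only required to be the lowest there. No fold change is given for a gene at this level in 4 or more libraries of ALP or of ILCp. Libraries at this level were not counted in EILP.

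Changes of the other 3 were 8.51 ± 0.44 for Gata3 (adjusted p = 1.06e-08), 6.11 ± 0.27 for Id2 (1.06e-09) and 10.32 ± 1.07 for Rora (1.39e-05). The libraries do not keep strand, and Rora overlaps a gene on the other strand, Gm15511, whose reads cannot be told from its own. The order of these genes by level says nothing of their relative amounts, since CPM is not scaled for transcript length.

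Summed levels of markers of other cells that the gates could hold differed between stages. The summed level of 5 T cell markers was 0.165 to 20.8 CPM in ALP and 1.58 to 33.4 CPM in ILCp, with Cd3d, Cd3e and Cd3g at the zero level in ALP. Summed over 6 neutrophil and macrophage markers, the level was 464 to 5800 CPM in ALP (highest in ALP 2) and 74.8 to 1520 CPM in ILCp, ranges that overlap, and 1 of the 6 was called. It was highest in EILP, with a median of 5450 and up to 36800 CPM. The 3 plasmacytoid dendritic cell markers summed to 638 to 1580 CPM in ALP and 80.3 to 326 CPM in ILCp, and all 3 were called lower. B lineage markers (7) summed to 82.7 to 255 CPM in ALP and 27.1 to 57 CPM in ILCp, where Ebf1 and Pax5 sat at the zero level. Mast cell and basophil markers (3) summed to 11.8 to 87.1 CPM in ALP, 459 to 11800 CPM in EILP and 104 to 567 CPM in ILCp. Erythroid and megakaryocyte markers (5) summed to 1.97 to 75.3, 58.2 to 413 and 35.8 to 468 CPM in these stages. The 4 stroma markers had medians of 0.781, 165 and 3.2 CPM and reached 1390 CPM in EILP. The part of such cells in the results below was not tested.

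The promoters of Id2 and Bcl11b are shown because both are markers of the committed stage and each holds a match to a motif of a factor in this program. Each is the 250 bases before the RefSeq start (GRCm38.p6), read on the minus strand, with the motif match in capitals. That of Id2 lies at chr12:25096093-25096342 and holds the E-box CAGCTG, first base at −196. That of Bcl11b lies at chr12:108003415-108003664 and holds CTTTGA, letters bound by TCF-1, first base at −89.
Id2: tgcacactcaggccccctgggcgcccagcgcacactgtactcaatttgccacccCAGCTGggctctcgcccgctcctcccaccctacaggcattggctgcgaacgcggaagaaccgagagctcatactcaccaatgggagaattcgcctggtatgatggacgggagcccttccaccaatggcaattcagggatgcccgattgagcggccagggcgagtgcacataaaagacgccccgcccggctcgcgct
Bcl11b: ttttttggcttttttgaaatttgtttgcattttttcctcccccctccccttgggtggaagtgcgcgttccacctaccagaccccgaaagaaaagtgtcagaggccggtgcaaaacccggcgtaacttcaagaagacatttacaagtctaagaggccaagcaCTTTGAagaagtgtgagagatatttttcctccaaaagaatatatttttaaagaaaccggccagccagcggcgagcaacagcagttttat
The same windows of Gata3 and Rora held neither of these. They also lacked AGATAA, letters bound by GATA factors. TGTGGT, bound by RUNX factors, was not found there (all searched on both strands). Among well expressed genes with a promoter, CAGCTG was found for 38 of 284 called higher (13.4%), 38 of 369 called lower (10.3%) and 463 of all 4579 (10.1%). CTTTGA was found for 8.1%, 9.76% and 10.5% of these groups. Of 50 promoters of called genes detected in ILCp and at the zero level in ALP, 13 held CTTTGA (26%), against 14% of all 27025 promoters in the RefSeq table. The latter also holds genes that were not measured here, unlike the reference for well expressed genes, and the difference was not tested. The shares of the other motifs in these groups were 18% and 10.3% for AGATAA, 14% and 12.8% for CAGCTG and 16% and 14.2% for TGTGGT. Among well expressed genes called higher, called lower and all, AGATAA was found for 7.04%, 7.05% and 5.39% and TGTGGT for 14.1%, 10% and 10.6%. A match describes letters and not a bound site. The windows of Id2 and Gata3 (chr2:9878601-9878850) lie inside the gene spans given above, and that of Bcl11b overlaps its span. Bases before the spans of Id2 and Gata3 were not searched.

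**Figure D1:**
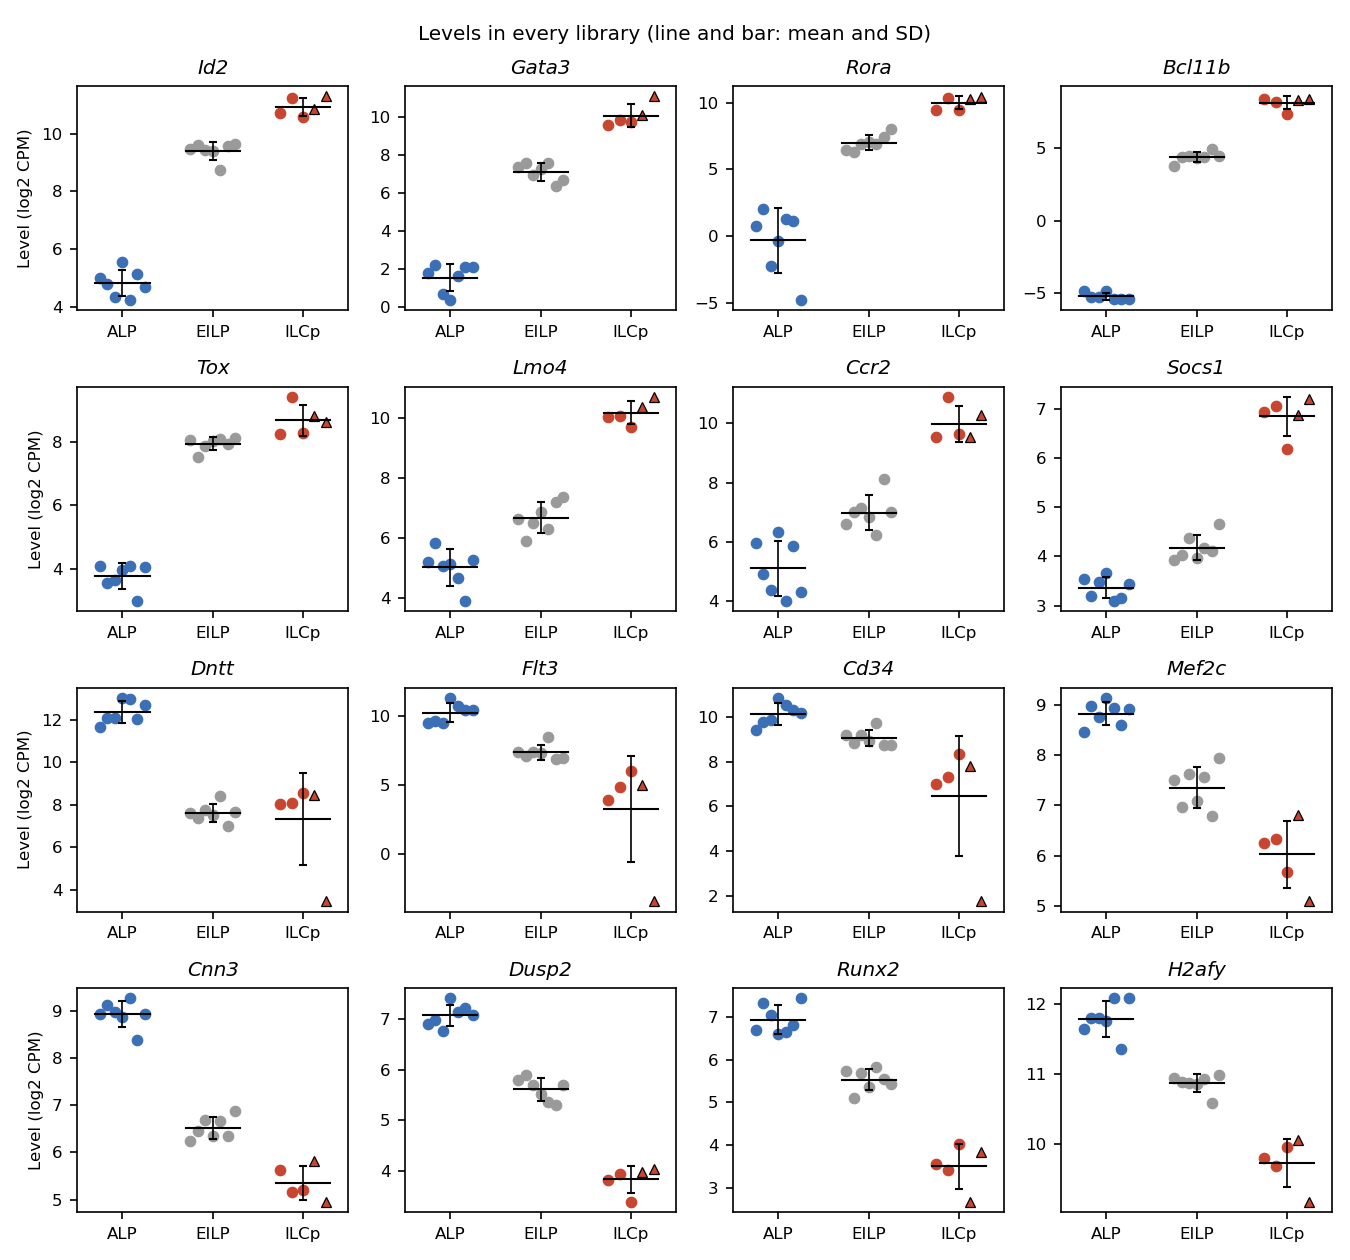
Level of 16 genes in each library (vertical axis, log2 CPM), by stage, with the mean and SD drawn as a line and bar and the Plzf-cre-GFP libraries as triangles. For the 8 rising genes each ILCp library lies above each ALP library (Gata3 9.60 and higher against 2.19 and lower), and the 8 falling genes show the reverse, with ILCp 5 far below the others for Dntt, Flt3 and Cd34.

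Between the 2 ends of the path, 1534 of 18607 genes were called (8.24%), of which 718 were higher in ILCp (3.86%) and 816 lower (4.39%). Well expressed genes, whose ALP and ILCp means averaged at least 5 log2 CPM, numbered 5876. Of these 821 were called (14.0%), 355 higher (6.04%) and 466 lower (7.93%). The sign was the same in batches 1, 2 and 4 for 811 of the 821. These batches hold every ILCp library used for the calls, so this agreement is no independent result. The ALP and ILCp libraries did not overlap for 307 of the 355 genes called higher and 389 of the 466 called lower. Over all well expressed genes, 870 (14.8%) had groups that did not overlap.

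Without ILCp 2 the count of 1534 was 920, and with the ALP and ILCp libraries fitted alone it was 772. Changes of called genes were mostly modest. Among well expressed called genes the median change was 1.17 for those higher and −1.07 for those lower, against a median absolute change of 0.37 over all well expressed genes. A rise of at least 1 (2-fold) was seen for 228 genes and a fall of that size for 249. At 2 or more on the log2 scale the counts were 70 and 66, and at 3 or more 17 and 21. A rise of at least 4 was seen for 9 genes (Gata3, Id2, Tcf7, Tox, Itgb3, Ahcyl2, Lmo4, Il18r1 and Ccr2) and a fall of at least 4 for 4 (Flt3, Il6st, Dntt and Ifi44). The table median was lower in ILCp than in ALP libraries (2.25 to 2.64 against 2.32 to 3.00 log2 CPM). Centring each library on its median therefore added 0.125 to each change and turned the share of calls that were higher from 46.8% to 58.2% (813 higher and 584 lower).

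**Figure D2:**
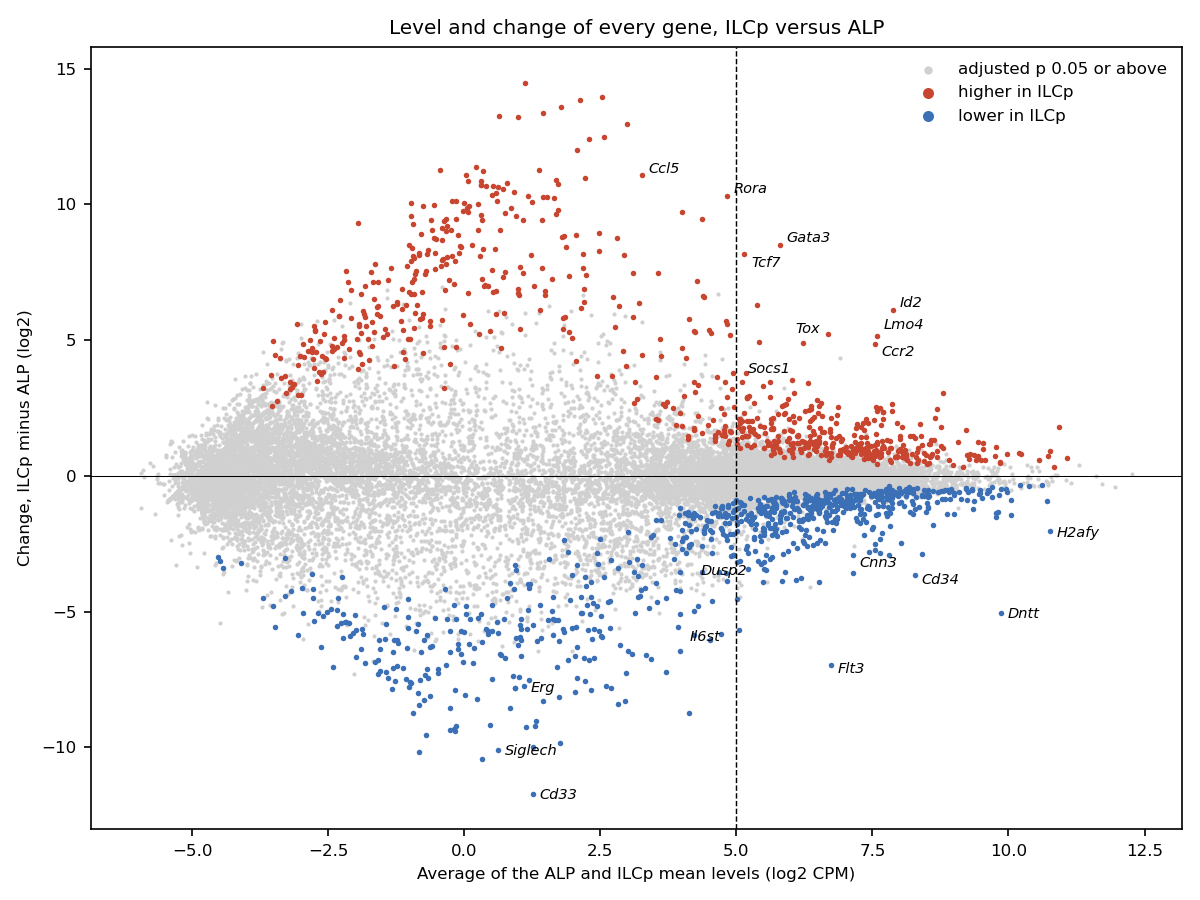
Change (ILCp minus ALP, log2) of each of 18607 genes against its average level in both groups (log2 CPM), with called genes in colour and the dashed line at the limit for well expressed genes. Calls number 355 higher and 466 lower to the right of the line, where Id2, Gata3, Dntt and Flt3 stand out; changes far to the left depend on the zero level.

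The distance between single libraries was the root mean square log2 difference per gene over the 5876 well expressed genes. An ALP and an ILCp library lay 0.737 to 1.17 apart (median 0.966, 35 pairs). Libraries of the same stage lay 0.539 to 0.773 apart in ALP (median 0.651, 21 pairs) and 0.482 to 0.792 in ILCp (median 0.651, 10 pairs). The ranges between and within stages overlapped slightly. The single steps were nearly as long as the whole, with medians of 0.933 from ALP to EILP and 0.956 from EILP to ILCp. EILP is also where the neutrophil and macrophage, mast cell and stroma marker sums given above were highest, and their part in the EILP distances, positions and steps was not tested.

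On the line from the ALP mean (0) to the ILCp mean (1), EILP libraries lay at 0.345 to 0.531 (median 0.476). ILCp 1 to 5 were placed at 0.862, 1.06, 0.715, 0.864 and 1.10, and ALP between −0.0233 and 0.141, each on a line built without the library itself. No EILP library overlapped with either end. ILCp 3 lay nearest to EILP, and ILCp 5 and ILCp 2 farthest from ALP.

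**Figure D3:**
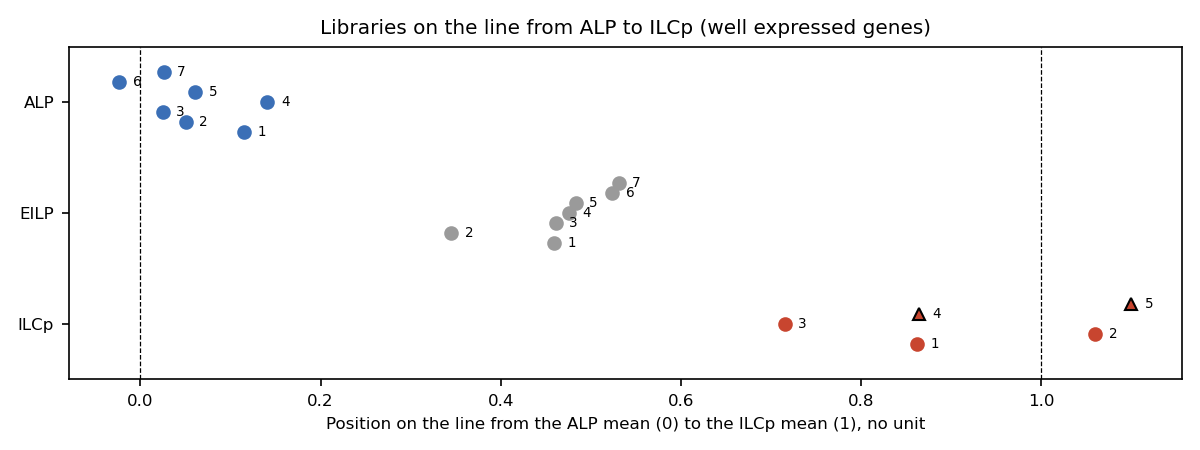
Position of each library (horizontal axis, no unit) on the line from the ALP mean to the ILCp mean over well expressed genes, with replicate numbers and the Plzf-cre-GFP libraries as triangles. The 7 EILP libraries lie between 0.345 and 0.531, apart from both ends, and the 5 ILCp libraries spread from 0.715 to 1.10.

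Among transcription factors of innate lymphoid development, 15 of 18 were called higher and none lower, with a median change of 8.15. That median rests in part on genes near the zero level in ALP. The 15 include Gata3, Bcl11b, Id2 and Rora, the markers set for this stage, and Tcf7 and Zbtb16, whose reporters were gated. Their part of the count is no independent result, and all lists were chosen with earlier results of these data known. Over all genes tested the median change was −0.03. With the ALP and ILCp libraries alone, 13 of the 18 were called higher, with a median of 7.01. The counts of this and the later lists are to be read against 3.86% of all genes called higher and 4.39% called lower (6.04% and 7.93% of well expressed genes). Tox, which encodes an HMG-box factor needed for ILC and NK cell development, measured 8.26, 9.42, 8.27, 8.81 and 8.64 log2 CPM in ILCp 1 to 5 and 2.99 to 4.10 in ALP (median 3.95). Its change was 4.91 ± 0.28. Many other genes named here overlap a gene on the other strand as Rora does, among them Flt3, Tcf7, Tox, Cd34, Notch1, Bcl2, Jak1, Ccnd2, Rb1, Cdk4, Mcm7, Cxcr5, Cxcr6, Ctsw, Runx2, H2-DMa and Csf1r. For Tox each ILCp library was more than 4 above each ALP library. Tcf7 itself was gated through its reporter in 3 of the 5 ILCp libraries. It measured −2.66 to 3.59 in ALP, at the zero level in 2 libraries, and 8.95 to 9.56 in ILCp. The Plzf-cre-GFP libraries, not gated on Tcf7, were within that range at 9.46 and 8.96. Further called members, each at the zero level in up to 3 ALP libraries, were Zbtb16, the gene of PLZF (8.88 ± 1.08), Tox2 (12.49 ± 0.87) and Maf (8.13 ± 1.57). The Zbtb16 reporter was part of the gate for ILCp 4 and 5, so the Zbtb16 rise is no independent result. Ets1 and Runx3, detected in all libraries, rose by 3.04 ± 0.42 and 1.06 ± 0.25. Nfil3, a factor needed early in ILC development, did not pass (0.60 ± 0.39, adjusted p = 0.415).

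Among E and Id proteins, Id2 was called higher and Tcf4 lower, and 4 of 6 did not pass. Tcf4, which encodes the E protein E2-2, measured 6.41, 6.97, 6.66, 6.70 and 6.48 in ILCp 1 to 5 and 7.73 to 8.50 in ALP (median 8.06), a change of −1.40 ± 0.23. Tcf3 and Tcf12, the genes of the E proteins E2A and HEB, changed by 0.27 ± 0.14 and 0.83 ± 0.28 without passing. So the transcript of the E protein inhibitor rose while those of E2A and HEB were not called.

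Lmo4, which encodes a LIM-only adaptor of transcription complexes, showed the smallest adjusted p among the other large rises. It measured 10.03, 10.05, 9.68, 10.36 and 10.68 in ILCp 1 to 5, against 3.91 to 5.84 in ALP (median 5.14). The change was 5.15 ± 0.37 (adjusted p = 4.02e-07). Ahcyl2 measured 9.15, 9.34, 8.52, 9.61 and 9.86 in ILCp 1 to 5 and 2.18 to 5.21 in ALP (change 5.22 ± 0.49). This gene encodes a relative of the enzyme that hydrolyses S-adenosylhomocysteine. Ccr2, the receptor for the chemokine CCL2, measured 9.53, 10.90, 9.64, 9.55 and 10.29 in ILCp 1 to 5 and 4.02 to 6.33 in ALP (change 4.87 ± 0.51). Il18r1, the ligand-binding chain of the IL-18 receptor, measured 7.65, 8.58, 7.41, 7.41 and 8.39 in ILCp 1 to 5 and 1.82 to 5.44 in ALP (change 4.94 ± 0.76). No ALP library reached the lowest ILCp library of these 4 genes.

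Socs1, a feedback inhibitor of cytokine signalling through JAK kinases, measured 6.92, 7.05, 6.18, 6.87 and 7.20 in ILCp 1 to 5. It lay between 3.10 and 3.66 in ALP (median 3.44), and its change was 3.48 ± 0.29. Sema4a, which encodes a semaphorin of the cell surface, rose by 3.52 ± 0.37. The integrin β3 gene Itgb3 measured 9.27, 7.34, 8.48, 8.60 and 8.99 in ILCp 1 to 5 and spread from −4.42 in ALP 5 to 4.97 (change 6.31 ± 1.44, adjusted p = 0.0119). That call was lost without ALP 4 (adjusted p = 0.0542), without ILCp 1 (0.0569) or without the Plzf-cre-GFP libraries (0.0766). Dennd4c (3.80 ± 1.07, adjusted p = 0.0379) lost its call without any 1 of the ILCp libraries and had a change of 2.95 without ILCp 2 (adjusted p = 0.235).

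Some smaller rises had small p-values, since the libraries of each group lay close together. Prr13 measured 8.77, 9.08, 8.51, 8.84 and 9.16 in ILCp 1 to 5 and 6.28 to 6.78 in ALP, a change of 2.34 ± 0.16 (adjusted p = 2.49e-07). Itm2c, a membrane protein gene, rose by 2.4 ± 0.17 (adjusted p = 3.42e-07), with ILCp from 8.76 to 9.28 and ALP from 6.40 to 6.89. ALP and ILCp libraries did not overlap for either gene.

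Of the genes of lymphoid progenitors, 16 of 19 were called lower and 1, Ikzf2, higher, with a median change of −2.48. Of the 15 well expressed members 14 were called lower. Flt3, the cytokine receptor used to gate ALP, measured 3.90, 4.85, 6.01, 4.97 and −3.47 in ILCp 1 to 5, against 9.50 to 11.31 in ALP (median 10.42). It fell by 6.96 ± 1.36 (adjusted p = 0.00416), or by 5.59 without ILCp 5. High Flt3 was part of the ALP gate, so this fall is no independent result. Dntt was 8.04, 8.10, 8.58, 8.48 and 3.45 in ILCp 1 to 5 and 11.65 to 13.05 in ALP (median 12.12). It fell by 5.05 ± 0.80 with ILCp 5 and by 4.26 without it. Cd34, a sialomucin of early progenitors, was 7.01, 7.29, 8.35, 7.82 and 1.77 in ILCp 1 to 5 and 9.42 to 10.84 in ALP. It fell by 3.67 ± 0.95 (adjusted p = 0.0241). Its call was lost without ALP 4 (adjusted p = 0.127), ILCp 1 (0.0533) or ILCp 2 (0.055), while without ILCp 5 it fell by 2.72 (1.38e-06). ILCp 5 was the lowest ILCp library for all 3 genes, and the other Plzf-cre-GFP library, ILCp 4, was not.

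Mef2c, which encodes a factor of lymphoid and B cell priming, was steadier. It measured 6.25, 6.33, 5.67, 6.80 and 5.09 in ILCp 1 to 5 and 8.47 to 9.14 in ALP (median 8.91), a fall of 2.80 ± 0.31. Cd93, Ighm, Bcl11a and Satb1 fell by 1.97 ± 0.25, 1.53 ± 0.20, 2.47 ± 0.32 and 1.41 ± 0.21. Satb1 encodes an organiser of chromatin loops. The Rag genes, which encode the recombinase of antigen receptor genes, were more variable, with a change of −4.98 ± 1.40 for Rag2 (adjusted p = 0.0384) and −5.71 ± 1.75 for Rag1, which did not pass (0.0566). Ikzf2, the gene of the zinc finger factor Helios, rose by 5.17 ± 0.82. In a fit with only the ALP and ILCp libraries, 8 members of the list were called lower.

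Other large or steady falls included genes outside the list. Cnn3, a calponin that binds actin, measured 5.62, 5.17, 5.19, 5.82 and 4.95 in ILCp 1 to 5 and 8.39 to 9.26 in ALP (median 8.94). It fell by 3.57 ± 0.22 (adjusted p = 7.73e-08). Dusp2, a phosphatase that switches off MAP kinases, measured 3.81, 3.94, 3.38, 3.97 and 4.03 in ILCp 1 to 5 and 6.77 to 7.41 in ALP, a fall of 3.25 ± 0.22. The ILCp libraries lay close together for Dusp2, and none came near the lowest ALP library. Mgat1, an enzyme of N-glycan synthesis, fell by 2.47 ± 0.18, from 8.97 to 9.54 in ALP to 6.34 to 7.22 in ILCp. The histone variant gene H2afy (macroH2A1) measured 9.80, 9.69, 9.95, 10.05 and 9.17 in ILCp 1 to 5 and 11.35 to 12.07 in ALP, a fall of 2.05 ± 0.17. Egfl7, an angiogenic factor gene, fell by 3.83 ± 0.30, though its reads cannot be told from those of Agpat2 on the other strand. Tsc22d1 fell by 3.91 ± 0.43, Mpeg1, the gene of perforin-2, by 3.85 ± 0.65 and Lmo2, a member of the list that encodes an adaptor of stem cell transcription complexes, by 3.77 ± 0.60. Sh2d5 and Fam134b, an endoplasmic reticulum receptor gene, fell by 3.9 ± 0.73 (3.2 without ILCp 5) and 3.54 ± 0.60. Il6st, the signalling chain gp130 of the IL-6 receptor family, was 3.04, −3.04, 4.22, 3.37 and 3.40 in ILCp 1 to 5 and 5.60 to 9.72 in ALP. It fell by 5.69 ± 1.31, and by 2.73 without ILCp 2.

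Stem and multipotent cell genes gave 9 of 23 lower and none higher, with a median change of −2.63. With the ALP and ILCp libraries alone 5 were lower. Hoxa9, a homeobox gene of early progenitors, measured 0.03, 3.09, 1.73, 2.60 and 1.50 in ILCp 1 to 5 and 5.12 to 7.30 in ALP, a fall of 4.20 ± 0.64. Erg, an ETS factor of stem cells, fell from 2.48 to 6.24 in ALP to −5.25 to 0.49 in ILCp (−7.74 ± 1.24). Eltd1, Hhex, Lyl1, Mn1, Hoxa7, Hoxa5 and Cd34 were the other members called. The groups did not overlap for Hoxa9, Erg, Eltd1 or Cd34.

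Of 19 B lineage genes, 6 were called lower, and none higher. Blnk, the adaptor of the pre-B cell receptor, was 5.20 to 6.43 in ALP and at −6.73, 2.85, −4.19, −4.19 and −3.74 in ILCp 1 to 5. Ebf1, the factor that sets the B cell fate, had a mean of 2.06 in ALP and sat at the zero level in 5 of 5 ILCp libraries. Ighm, whose unrearranged locus is transcribed in early lymphoid cells, stayed at 8.49 to 9.35 in ILCp against 10.18 to 10.79 in ALP. The count of 6 became 4 without ILCp 2, 2 without the Plzf-cre-GFP libraries and 1 without batch 4.

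Genes of the mature ILC subsets were partly on in ILCp. Of 18 ILC2 genes 9 were called higher, of 14 ILC3 and lymphoid tissue inducer genes 7 were higher and 1 lower, and of 20 NK cell and ILC1 genes 13 were higher. Of the well expressed members, 1 of 2, 1 of 5 and 4 of 5 were called higher in these lists. The ILC2 count includes the markers Gata3 and Rora. Alox5, a 5-lipoxygenase that makes leukotrienes, measured 6.97, 6.97, 5.20, 5.57 and 4.23 in ILCp 1 to 5 and −4.66 to 0.29 in ALP. Arg1, the arginase of ILC2 progenitors, stood at 7.22, 8.72, 5.25, 6.20 and 8.05 in ILCp 1 to 5 and at the zero level in ALP. Icos, a costimulatory receptor, rose by 5.60 ± 1.20 and Il17rb, the IL-25 receptor chain, by 5.29 ± 1.05. Cxcr5, a chemokine receptor of lymphoid tissue inducer cells, measured 5.88, 6.45, 7.54, 7.96 and 8.09 in ILCp 1 to 5 and −4.93 to 0.14 in ALP. Cxcr6 measured 8.94, 8.81, 9.39, 9.58 and 10.84 in ILCp 1 to 5 and was at the zero level in 4 ALP libraries. Il1r1, the IL-1 receptor, was the member called lower, a fall of 2.98 ± 0.52.

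On the NK and ILC1 side, the chemokine gene Ccl5 measured 8.78, 9.72, 7.92, 8.60 and 8.99 in ILCp 1 to 5 and −5.11 to 1.64 in ALP (change 11.08 ± 0.95). Ctsw, a protease of cytotoxic cells, rose by 3.42 ± 0.33, from 4.31 to 5.11 in ALP to 7.36 to 8.69 in ILCp. Nkg7, a granule protein gene, rose by 1.47 ± 0.23. Klrb1b, a lectin receptor gene, measured 6.31, 4.73, 5.93, 5.82 and 5.93 in ILCp 1 to 5 and was at the zero level in 5 ALP libraries. Summed markers of mature cells had higher medians in ILCp too, though the NK cell ranges overlapped and not all markers were called. The 5 NK cell markers summed to 0.412 to 19.2 CPM in ALP (median 1.07) and 6.99 to 78 CPM in ILCp (median 56), and 3 of them were called higher. The 3 markers of mature ILC2 summed to 0.139 to 8.68 CPM in ALP and 8.91 to 47.2 CPM in ILCp, with none called. The part of mature cells in these counts was not tested. Without batch 4 the counts of called higher were 4 for ILC2, 3 for ILC3 and 8 for NK and ILC1 genes, and without ILCp 2 they were 6, 5 and 8.

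Of 24 T cell receptor and signalling genes 13 were called higher and 1 lower, with a median change of 3.43. Of the 4 well expressed members 1 was called higher. Constant regions of receptor loci led the list, which are transcribed without rearrangement in early cells. Trbc1 measured 10.07, 9.93, 8.66, 9.22 and 9.52 in ILCp 1 to 5 and −5.47 to 0.47 in ALP. Tcrg-C4 measured 8.80, 8.47, 9.21, 9.53 and 9.27 in ILCp 1 to 5, and sat at the zero level in ALP. Trbc1 and Trbc2 are near-identical copies, so reads may be split between them. The kinase gene Txk had a mean of 8.08 in ILCp and was at the zero level in 5 ALP libraries. The adaptor gene Lcp2 rose by 2.48 ± 0.38. Themis, a T cell selection factor gene, measured 6.18, 6.16, 4.51, 4.71 and 6.71 in ILCp 1 to 5. Cd3d and Cd3g were called from means of 0.62 and 1.99 in ILCp. Ubash3a, an inhibitor of receptor signalling, was the member called lower (−4.51 ± 1.17). Without ILCp 2 its change was −1.89 and did not pass (adjusted p = 0.0511).

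Of 9 genes of the sorting gates 7 were higher and 1, Flt3, lower, and these changes are no independent result. Il2rb, which encodes CD122, was among the 7 although CD122 was gated low in ILCp. It measured 6.15, 7.61, 6.47, 6.11 and 6.70 in ILCp 1 to 5 and −5.74 to 2.81 in ALP, a rise of 8.28 ± 1.41. Il2rb was at the zero level in 3 ALP libraries, so the size of the rise depends on that level. Cytokine receptors moved both ways, 11 of 38 higher and 11 lower. Kit, positive in both gates, measured 9.22, 9.28, 9.01, 9.11 and 9.10 in ILCp 1 to 5 and 7.75 to 8.20 in ALP, a rise of 1.17 ± 0.11. Il2rg, the shared γ chain of the IL-2, IL-7 and IL-15 receptors, measured 8.82, 8.57, 8.21, 8.53 and 9.55 in ILCp 1 to 5 and 6.30 to 7.01 in ALP. It rose by 2.10 ± 0.26. Il7r, part of both gates, rose by 2.46 ± 0.52 and Tgfbr2, the TGF-β receptor chain, by 1.82 ± 0.25. Il27ra and Il12rb1 rose by 2.57 ± 0.40 and 4.72 ± 0.86. Chains that fell included Il10rb (−2.90 ± 0.36), Il21r (−2.63 ± 0.33) and the interferon receptor chain Ifnar2 (−1.57 ± 0.22). The growth factor receptors Csf1r and Csf3r fell by 6.46 ± 1.52 and 7.04 ± 1.67, with groups that overlapped and calls that were lost without ILCp 1 or ILCp 2. The summed neutrophil and macrophage markers given above were lower in ILCp too, with Csf1r the 1 of 6 that passed, and their part in these values was not tested. In the fit of ALP and ILCp alone the counts were 7 and 6, and without batch 4 they were 5 and 11.

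Signalling genes downstream of these receptors rose or did not pass. Of 17 Stat and Socs genes 6 were higher (Socs1, Jak1, Jak2, Stat3, Stat5a and Stat5b) and none lower. Jak1, the kinase paired with many of the chains above, measured 9.63, 9.54, 9.54, 9.83 and 9.97 in ILCp 1 to 5 and 8.27 to 8.70 in ALP (change 1.25 ± 0.14). Jak2 rose by 2.14 ± 0.26. Without batch 4, 3 of the 17 were called higher.

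Of 30 chemokine receptor, integrin and egress genes 11 were higher and 2 lower. The integrin β7 gene Itgb7, a chain of the gated α4β7 pair, measured 8.87, 9.27, 9.08, 8.88 and 9.85 in ILCp 1 to 5 and 5.87 to 6.87 in ALP (change 2.64 ± 0.23). Its partner Itga4 rose by 1.49 ± 0.30. Itgal and Itgb2, the chains of LFA-1, rose by 1.90 ± 0.23 and 1.77 ± 0.26. Cxcr4, which holds progenitors in the marrow, fell by 1.68 ± 0.31, from 6.33 to 6.85 in ALP to 4.16 to 5.55 in ILCp.

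In the Notch pathway 4 of 15 genes were higher and 3 lower. The 4 became 2 without ILCp 2, and 1 without batch 4 or with the ALP and ILCp libraries alone. Notch1 measured 5.34, 6.28, 5.29, 5.31 and 5.66 in ILCp 1 to 5 and 6.74 to 7.94 in ALP, a fall of 2.03 ± 0.36. Hes1, a repressor induced by Notch, measured 6.11, 8.94, 6.44, 6.82 and 6.75 in ILCp 1 to 5 and −3.93 to 3.81 in ALP, a rise of 5.76 ± 1.14. The receptor and Hes1 thus moved in opposite directions, but Hes5, another gene of the list, was called lower as Notch1 was. Hes5 measured −1.70 to 2.26 in ALP and −5.53 to −4.26 in ILCp, at the zero level in 4 ILCp libraries. The Hes1 call was lost without ILCp 2 (adjusted p = 0.055). Hes6 fell by 1.14 ± 0.18.

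Among 27 lymphotoxin, TNF family and NF-κB genes 5 were higher (3 without batch 4) and 1 lower. Tnfrsf9 (4-1BB) measured 4.80, 6.69, 3.96, 4.31 and 5.10 in ILCp 1 to 5 and −5.80 to −3.61 in ALP, at the zero level in 4 libraries. Lta, which encodes lymphotoxin α, a signal of lymphoid tissue inducer cells, was at the zero level in 5 ALP libraries and at 3.39, 4.59, 3.03, 3.21 and 3.62 in ILCp 1 to 5. Tnfrsf18 (GITR) rose by 1.96 ± 0.41. Ltb had a difference of 4.36 ± 1.33 that did not pass (adjusted p = 0.0551).

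Of 27 immediate early and stress genes 3 were higher and 1, Dusp2, lower. Btg2, an antiproliferative gene, and Junb, an AP-1 subunit gene, rose by 1.76 ± 0.30 and 1.58 ± 0.28, and Atf3 was the other member called higher.

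Of the Bcl2 family and caspases 3 of 20 were higher and 2 lower. Bcl2, which keeps lymphocytes alive downstream of IL-7, measured 9.62, 10.12, 9.32, 9.88 and 9.65 in ILCp 1 to 5 and 6.75 to 8.63 in ALP (change 2.15 ± 0.28). Bcl2l1 rose by 1.8 ± 0.43, while the death genes Casp8 and Bid fell by 0.81 ± 0.13 and 1.10 ± 0.27. Bik, a pro-apoptotic member, was the third gene called higher, at 3.59 to 4.96 in ILCp and at the zero level in 6 ALP libraries. Calls of Bcl2l1 and Bid were lost without ILCp 1 (adjusted p = 0.0781 and 0.0834), and that of Bcl2l1 also without ILCp 2 (0.102).

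Several cell division genes were lower in ILCp, mostly by less than 2 on the log2 scale. All 23 mitosis genes were well expressed, and 11 were called lower and none higher, with a median of −1.06 (7.93% of well expressed genes were called lower, with a median change of −0.07 over all of them). Cdk1, the kinase that starts mitosis, measured 6.70, 6.46, 6.98, 6.56 and 6.57 in ILCp 1 to 5 and 7.56 to 8.34 in ALP, a fall of 1.22 ± 0.19. Cdc20 and Nusap1 fell by 1.06 ± 0.18 and 1.39 ± 0.25. Without ILCp 2 the count was 5. Of 28 DNA replication genes 12 were called lower, with a median of −0.57, among them the helicase genes Mcm7 (−0.86 ± 0.15) and Mcm5 (−0.64 ± 0.12) and Rpa2 (−0.67 ± 0.13). This count was 6 with median centring, 7 without ILCp 2 and 2 without batch 4.

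Of 20 G1 regulators 4 were lower and 1 higher. Ccnd2, a cyclin D gene, measured 7.66, 7.18, 7.50, 7.79 and 8.21 in ILCp 1 to 5 and 8.61 to 9.15 in ALP, a fall of 1.22 ± 0.18. E2f1, which encodes an S phase activator, was 5.15, 5.29, 5.75, 5.14 and 5.44 in ILCp 1 to 5 and within 6.28 to 6.47 in ALP, a fall of 1.01 ± 0.18. Cdk4 and Myc fell by 0.64 ± 0.11 and 1.17 ± 0.21. The retinoblastoma gene Rb1, a brake on E2F, rose by 1.76 ± 0.41. That rise did not pass without ILCp 2 (adjusted p = 0.059).

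Of 30 genes of ribosome biogenesis 7 were lower and none higher (median −0.41). Npm1 (nucleophosmin) measured 9.68, 8.91, 9.64, 9.14 and 9.19 in ILCp 1 to 5 and 9.90 to 10.22 in ALP, a fall of 0.77 ± 0.16. Wdr12 fell by 1.20 ± 0.23 and Dkc1 by 0.61 ± 0.12. Without ILCp 2 or without batch 4 the count was 2. Of 34 proteasome genes 2 were lower, the immune subunit Psmb9 (−0.78 ± 0.13) and Psma5, and of 26 chromatin and DNA methylation regulators 1 (Satb1). Both counts are below the 7.93% of well expressed genes called lower. Of 18 glycolysis genes 4 were higher and none lower. Aldoa, an aldolase, measured 9.26, 9.17, 9.18, 9.36 and 9.47 in ILCp 1 to 5 and 7.57 to 8.36 in ALP (change 1.31 ± 0.15). The other members, Hk1, Pkm and Eno1, rose by 0.79 ± 0.20, 0.48 ± 0.13 and 0.57 ± 0.16. The count of 4 was 1 without batch 4 and 1 without the Plzf-cre-GFP libraries.

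Interferon-stimulated genes gave 9 of 23 lower and 1, Ly6e, higher (median −1.91). Bst2 (tetherin), also a plasmacytoid dendritic cell marker, measured 5.63, 5.72, 5.87, 5.47 and 5.47 in ILCp 1 to 5 and 6.68 to 7.50 in ALP, a fall of 1.44 ± 0.22. Ifi27l2a fell by 3.53 ± 0.67 and Xaf1 by 2.01 ± 0.39. Ifi44 fell by 4.55 ± 1.13, from 5.50 to 8.86 in ALP to 1.24 to 3.96 in ILCp, and did not pass without ALP 1 (adjusted p = 0.0524). Without ILCp 2, 5 of the 23 were called lower. Of 15 MHC genes 2 were higher, the class I gene H2-D1 (0.64 ± 0.10) and Tapbp, a chaperone of class I loading (0.93 ± 0.16). The class II chaperone gene H2-DMa fell by 1.90 ± 0.19, from 8.09 to 8.64 in ALP to 6.12 to 6.80 in ILCp. The class I-like gene H2-T23 fell by 0.55 ± 0.13.

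Genes of other lineages moved in both directions. Of 18 dendritic cell genes 8 were lower (5 without batch 4 or with the ALP and ILCp libraries alone) and 4 higher. Runx2, a factor of plasmacytoid dendritic cells and bone, measured 3.54, 3.42, 4.02, 2.66 and 3.85 in ILCp 1 to 5 and 6.61 to 7.43 in ALP, a fall of 3.43 ± 0.30. Siglech, a lectin of plasmacytoid dendritic cells, was 3.77 to 7.14 in ALP and −6.24 to −1.61 in ILCp. Those higher were Id2, Xcr1, Cd7 and Batf3. Of 21 myeloid genes 3 were lower (Cd33, Csf1r and Csf3r). Cd33, a sialic acid receptor of myeloid cells, was 4.13 to 9.23 in ALP and −5.78, −3.53, −4.70, −4.70 and −4.25 in ILCp 1 to 5. Without ILCp 2 the myeloid count was 1, and without batch 4 it was 7. Of 18 erythroid and megakaryocyte genes 3 were higher, and 1 without ILCp 2, without the Plzf-cre-GFP libraries or with the ALP and ILCp libraries alone. One was Itga2b (integrin αIIb, CD41), at 5.30, 6.42, 5.18, 4.84 and 0.24 in ILCp 1 to 5 and −5.47 to −0.61 in ALP. Of 14 mast cell, basophil and eosinophil genes 1 was higher, the carboxypeptidase gene Cpa3 at 9.10, 7.78, 7.79, 8.03 and 6.54 in ILCp 1 to 5 and −3.10 to 4.62 in ALP. Of 13 stroma genes none passed.

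**Figure D4:**
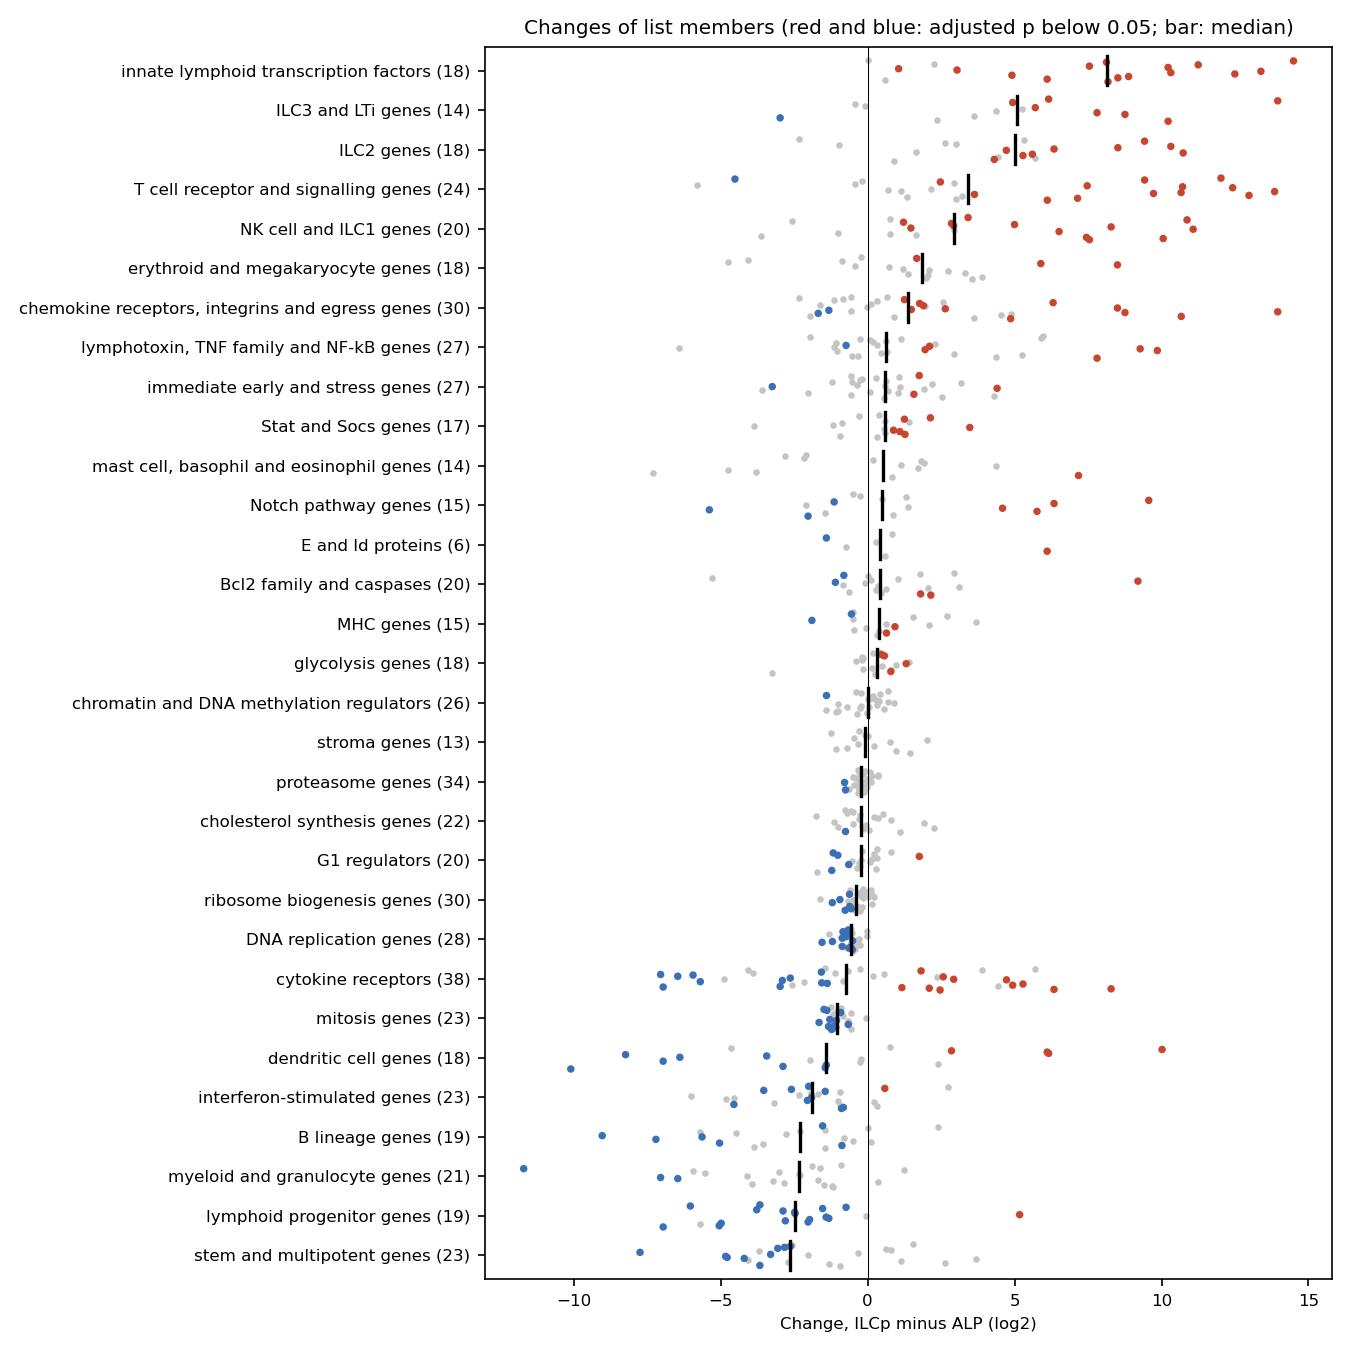
Change (ILCp minus ALP, log2) of each member of the gene lists, with called members in colour, the others in grey and the median as a bar; the number of members in the table is in brackets. Innate lymphoid transcription factors lie farthest to the right (median 8.15) and stem and multipotent genes farthest to the left (median −2.63), while proteasome and chromatin genes gather at 0.

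Some genes were detected at one end of the path only. In all 98 genes sat at the zero level in ALP and above it in each ILCp library of the shared batches, of which 95 were called, and 40 showed the reverse (31 called). They were picked for that separation of the groups, so the calls among them are no independent result. The highest in ILCp were Tcrg-C4, Rxrg, Ikzf3, Bcl11b, Dkk3, Stab2, Fgf3 and Arg1. Rxrg, a retinoid X receptor gene, measured 9.0, 8.94, 7.44, 8.21 and 9.22 in ILCp 1 to 5. Ikzf3, the gene of the zinc finger factor Aiolos, measured 9.65, 9.0, 7.08, 7.44 and 8.62. Dkk3, a secreted relative of Wnt inhibitors, measured 8.62, 8.57, 6.68, 7.21 and 6.90, and Stab2, a scavenger receptor gene, 8.49, 6.27, 5.74, 6.84 and 8.98. ILCp 3 was the lowest ILCp library for Rxrg, Ikzf3, Bcl11b, Dkk3, Stab2 and Arg1.

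The highest of the 31 in ALP were Uaca, Gm16710, Robo4, RP24-350F17.2, Rgs8, Sgsm1, Efcc1 and Ctnnd2. Uaca, which encodes a protein of the cytoskeleton and apoptosome, lay between 5.24 and 6.47 in ALP (median 5.79) and at −3.53 to −3.37 in ILCp. Robo4, a guidance receptor of endothelium and stem cells, lay between 2.98 and 5.63 in ALP, and Ctnnd2, a catenin gene, between 2.65 and 4.66. The other 5 had ALP means between 3.42 and 4.53.

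The total change of a gene can fall in the first step (EILP minus ALP), in the second (ILCp minus EILP) or in both. The first step alone called 939 genes (5.05%) and the second 598 (3.21%). Both share EILP libraries and the values are given side by side. Tox changed by 4.17 and then 0.74, Id2 by 4.58 and then 1.53, and Gata3 by 5.55 and then 2.96. Lmo4 changed by 1.66 and then 3.49, Ahcyl2 by 0.91 and then 4.32, and Socs1 by 0.81 and then 2.66. The second values were the larger for these 3, and the first did not pass for Ahcyl2 and Socs1. Among falling genes, Dntt changed by −4.76 and then −0.29 and Egfl7 by −3.26 and then −0.57, while Dusp2 changed by −1.47 and −1.78 and H2afy by −0.92 and −1.13. Tcf7 changed by 9.46 and then −1.28, and the second value did not pass (adjusted p = 0.717). EILP were gated on high GFP of the Tcf7 reporter, so the first value of Tcf7 is no independent result. Cdk4 changed by −0.01 and −0.63, Ccnd2 by 0.13 and −1.34, E2f1 by −0.16 and −0.86, and Npm1 by 0.09 and −0.86. For these 4 genes the second value passed and the first did not.

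**Figure D5:**
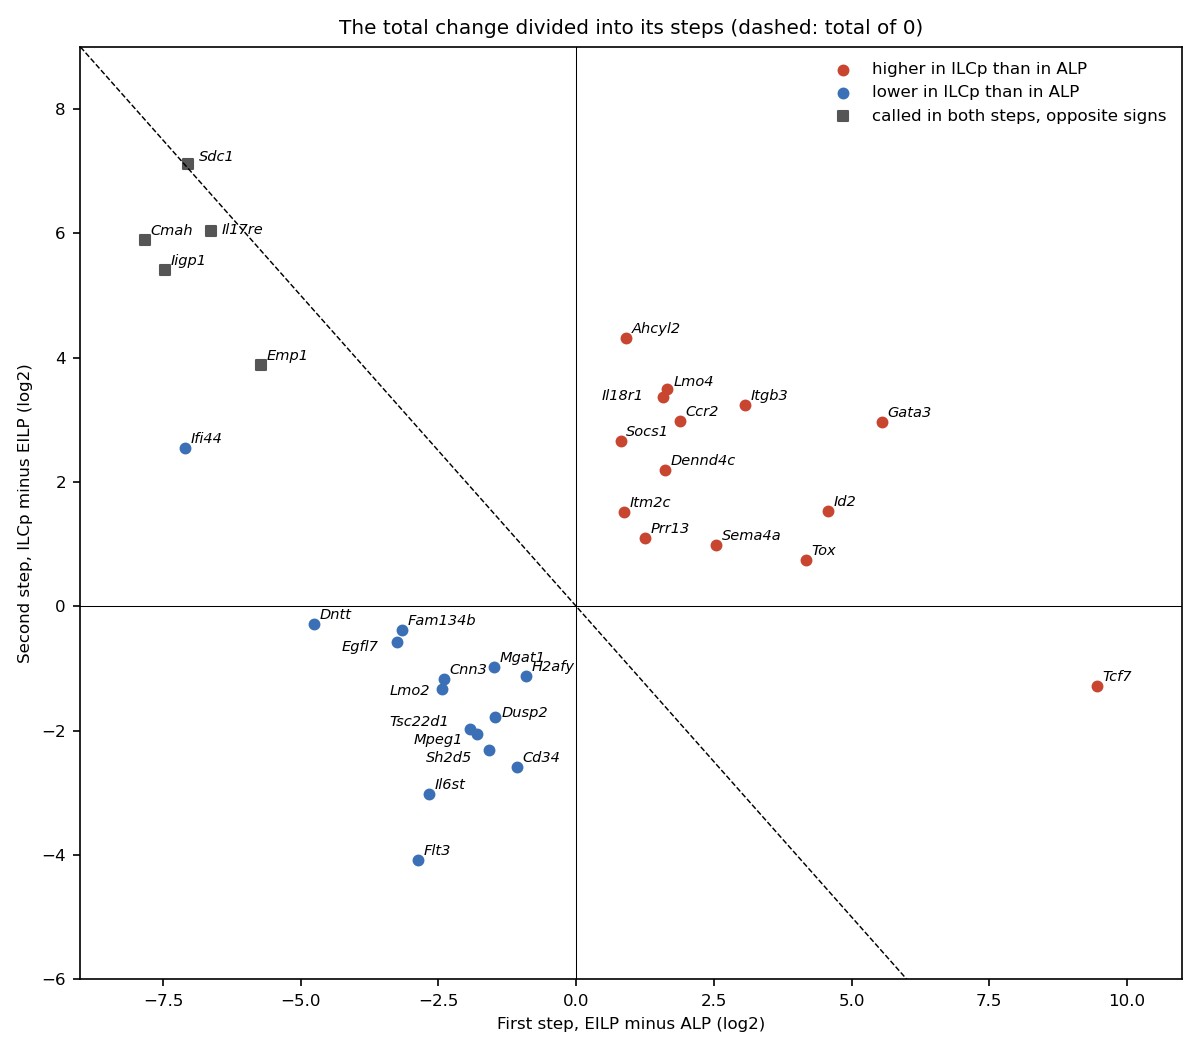
First step (EILP minus ALP, log2) against second step (ILCp minus EILP, log2) for genes named for size, p or opposite steps, with genes on the dashed line ending where they began. Id2, Gata3 and Tox lie far to the right with Tcf7, Ahcyl2 (0.91 and 4.32) and Lmo4 lie high, and Sdc1, Il17re, Cmah, Iigp1 and Emp1 lie near the line at the upper left.

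Some genes moved one way and then the other. In all 61 well expressed genes were called in both steps with opposite signs. Il7r changed by −2.12 and then 4.58, and Tgfbr2 by −1.24 and then 3.06, so both ended above ALP. IL-7Rα was gated intermediate or low in EILP and high in ILCp, so the steps of Il7r are no independent result. Sdc1, which encodes the proteoglycan syndecan-1, changed by −7.04 and then 7.12. It measured 8.87, 6.59, 6.09, 7.98 and 6.58 in ILCp 1 to 5, 5.24 to 9.18 in ALP (median 7.08) and −3.0 to 3.07 in EILP (median 0.87). Its ALP and ILCp libraries overlapped and the total change was 0.08 ± 1.28. Il17re, a receptor chain for IL-17C, changed by −6.64 and 6.04, and Cmah, an enzyme of sialic acid synthesis, by −7.82 and 5.90. Iigp1, an interferon-induced GTPase gene, changed by −7.47 and 5.42, and Emp1 by −5.72 and 3.89. These genes ran down to low levels in EILP, such as −4.60 to 4.10 for Cmah and −3.92 to 3.01 for Iigp1. Libraries at the zero level were not counted in EILP, so the step sizes are uncertain. Of these 5 genes none was called with limma between ALP and ILCp, and each had groups that overlapped.

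The ILCp group mixed 2 reporter strains. Between its 2 Plzf-cre-GFP and 3 Tcf7EGFP libraries 14 genes were called (0.0752%) with limma, and 845 at an unadjusted p below 0.05. The 4 markers differed between the strains by 1.12 (Gata3), 0.30 (Id2), 0.75 (Rora) and 0.48 (Bcl11b), none of them called. Flt3 differed by −5.23 and Cd34 by −3.46, also without passing (adjusted p = 0.96 for Flt3 and 1 for Cd34). Without the Plzf-cre-GFP libraries 1012 genes were called for ILCp versus ALP. Strain cannot be told apart from what else ILCp 4 and 5 share within batch 4.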

How the data were processed

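The deposited table holds log2 CPM of 18607 genes in 19 libraries made by the authors. Per the labels' protocols, RNA was purified with a column kit, amplified with SMARTer Ultra Low and made into Nextera XT libraries, which keep no strand. Per the submitters' processing notes, reads were handled with STAR 2.4.0h and bcl2fastq 1.8.4 on the mm10 build, and edgeR and limma are also listed. How reads were counted, and on which annotation, is not given in the sources used here. Batch was already removed: fitted batch terms beside the groups were at most 1.84e-08 in size, against 6.01 without the groups. Group differences therefore equal plain differences of means, and spreads leave out the spread between batches.

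A limma 3.58.1 model (R 4.3.3) with group and batch as fixed terms and a mean-variance trend was fitted to all 19 libraries (12 residual degrees of freedom), with Benjamini-Hochberg adjustment over all genes. The model was run on 5 simulated data sets with independent normal noise and no batch effect or zero level. They cannot show how those features, or the earlier removal of batch, affect the calls. The members and the gene lists were chosen with earlier results of these data known. A gene is at the zero level in a library when it takes the lowest value of its batch (tolerance 1e-06) and other libraries of the batch share it. Where a group has 1 library in a batch, only being the lowest was required.

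Genes were named as the markers and gate genes, the 12 largest steady rises and falls among well expressed called genes, and up to 3 members per list and direction with the smallest p. To these were added 8 genes per direction at the zero level in 1 group, 5 well expressed genes per direction with the smallest p, and 5 with opposite called steps. Other list members that are named were chosen after their values were seen. Replicate numbers do not pair the libraries: correlations of same-numbered deviations were −0.0774, −0.15, 0.0473, −0.386 and 0.0597. Alternatives changed the batch term, libraries, batches, centring, trend, fold limit and level limit. Those without batch 4, without batch 5, and without ALP 7 and EILP 2 together were chosen after seeing the data, as were list counts without batch 4. Coordinates are from GENCODE M21 (GRCm38, the same assembly as mm10), and promoters from RefSeq (GRCm38.p6), matched by symbol for 11454 genes. Values of a few genes are not reported here.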

Additional observations from a re-analysis of the deposited data

Results flagged for a closer look

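Of 284 groups of 5 or 7 libraries examined for the named genes reported here, 27 had a highest or lowest library whose gap to its neighbour was large for the range of the group (Dixon's 95% limit). Chance alone gives about 1 in 20.

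ILCp 5 stood apart 5 times. It was low for Flt3 (−3.47, the others 3.90 to 6.01), Dntt (3.45, the others 8.04 to 8.58), Cd34 (1.77, the others 7.01 to 8.35) and Sh2d5 (0.08, the others 3.74 to 4.89), and also for Itga2b (0.24, the others 4.84 to 6.42). ILCp 2 was low for Il6st (−3.04, the others 3.04 to 4.22) and high for Hes1 (8.94, the others 6.11 to 6.82). ILCp 3 was low for Bcl11b (7.34, the others 8.19 to 8.44) and Gp1bb (−3.65, at the zero level, the others 1.87 to 3.26).

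ALP 4 stood apart for Themis (−3.79), Alox5 (0.29), Itga2b (−0.61) and Fgf3 (−0.27), above the others, and for Il2ra (−6.93) and Rgs8 (1.71), below the others. Except for Rgs8, these were the lowest values of batch 4, in which ALP 4 was the only ALP library. The zero level differs between batches, so they are not read as differences in expression. ALP 5 was low for Itgb3 (−4.42) and Efcc1 (2.50) and high for Eltd1 (10.01). Single ALP libraries were low for Hes1 (−3.93 in ALP 3), Notch1 (6.74 in ALP 6) and Bcl2l1 (3.36 in ALP 7), and high for Jak1 (8.70 in ALP 2) and Emp1 (9.78 in ALP 1).

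The last 4 also lay at or near the zero level: Uaca (−3.37) and Sgsm1 (−3.71) in ILCp 1, and RP24-350F17.2 (−5.12) and Ctnnd2 (−5.50) in ILCp 2.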

How the results depend on the processing

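Counts of calls depended on the design, in the order all, higher, lower, well expressed higher and well expressed lower. They were 3856, 1680, 2176, 739 and 1086 with no batch term, and 11612, 5396, 6216, 1772 and 2362 with batch as a random effect. Both fits used values from which batch was already removed, with a within-batch correlation of −0.24. Their higher counts are therefore not taken as a better estimate. With the ALP and ILCp libraries alone they were 772, 415, 357, 197 and 195, and with batches 1, 2 and 4 of these 635, 377, 258, 172 and 156. Without batch 4 they were 855, 389, 466, 175 and 247. A replicate block in place of batch gave 2362 calls, 1079 higher and 1283 lower, though the numbers do not pair the libraries. Batch 4 alone gave 710 calls, 113 higher, with 22 and 11 well expressed. Without the Plzf-cre-GFP libraries there were 1012 calls, 525 lower, with 222 and 299 well expressed. Leaving out each ALP and ILCp library in turn gave 920 to 1484 calls, 484 to 715 higher, 436 to 771 lower, and 222 to 358 and 245 to 470 well expressed, each lowest without ILCp 2. Well expressed calls were 228 and 249 at 2-fold, 224 and 240 without the mean-variance trend (518 lower in all), and 181 and 216 from 7 log2 CPM, with 287 lower after median centring. The median distance between ALP and ILCp libraries was 2.56 over all genes and 0.762 from 7 log2 CPM, and the median EILP position 0.541 over all genes. Of 145 named genes, 139 were called, 113 of them in each fit without 1 ALP or ILCp library and 22 under each other setting. The sign of Sdc1, which was not called, turned to −0.78 with the ALP and ILCp libraries alone or batches 1, 2 and 4, −0.19 in batch 4 alone, −0.08 to −0.03 without ALP 5 (−0.08), 6 (−0.06) or 7 (−0.03), −0.75 without ILCp 1, −0.08 without ILCp 4 and −1.23 without batch 5. That of Il17re turned to 0.53, 0.53 and 0.42 under the first 3 of these, 0.0375 without batch 4 and 0.46 without batch 5, and that of Cmah to 0.0357 without batch 4. The causes were not tested. Depth is unknown, so low levels cannot be given a counting error.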
